A study of Homo sapiens with 12 samples.

Results

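CDK14, its cyclin CCNY and the related TAIRE kinases CDK16, CDK17 and CDK18 were followed through a map of internal N7-methylguanosine (m7G) in prostate cancer cells. The 5 genes were taken by their Ensembl identifiers, ENSG00000058091 for CDK14, ENSG00000108100 for CCNY, ENSG00000102225 for CDK16, ENSG00000059758 for CDK17 and ENSG00000117266 for CDK18. They are 5 of the 18569 gene IDs in the deposited tables and hold 420 of the 842183 listed positions. CDK14 had 147 of these positions, CCNY 129, CDK16 99, CDK17 30 and CDK18 15. CDK14 is the transcript that the study itself went on to examine from its comparison of these libraries, so its choice is not independent of the values given here.

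The cells were LNCaP-AI, a castration-resistant line of prostate origin kept under androgen deprivation. The shMETTL1 group carried a stable short hairpin against METTL1, and the shscramble group carried a scrambled hairpin in its place. Each group had 3 AlkAniline-Seq libraries and 3 input libraries, numbered 1 to 3, so that 12 libraries were analysed. Both groups shared the cell line and the androgen deprivation, and a single METTL1 hairpin sequence was listed for the stable line. The study's statistics section speaks of biological replicates for its data as a whole, and the labels of these libraries give only a replicate number. The hairpin is shown because it is the only agent that sets the groups apart, with its paired arms of 21 bases in capitals and the loop of 4 bases between them in lower case.
shMETTL1: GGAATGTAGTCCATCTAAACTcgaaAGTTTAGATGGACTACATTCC

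CDK14, also called PFTAIRE kinase, is a cyclin-dependent kinase that depends on cyclin Y. Cyclin Y, the product of CCNY, is anchored to the plasma membrane through a lipid tail and brings CDK14 there, where the pair phosphorylates the Wnt co-receptor LRP6 around mitosis and primes the cell for Wnt signalling. CDK16, CDK17 and CDK18 are the PCTAIRE kinases, a neighbouring branch of the same family, and CDK16 is also activated by cyclin Y. METTL1 is the catalytic subunit of a methyltransferase that places m7G on tRNA and has been described to act on other RNAs. In AlkAniline-Seq, alkaline treatment removes the base at m7G, aniline cleaves the RNA there, and the resulting ends are read at single positions.

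For every position the files give the reads counted at it, the reads covering it, the count as a fraction of the coverage, and the fold of that fraction over the input. The AlkAniline-Seq libraries held 2512434, 2764417 and 2474464 reads in shMETTL1 and 1730427, 2624431 and 1421551 in shscramble. The input libraries held 2783709 to 3258499 reads in shMETTL1 and 3045523 to 3152800 in shscramble. These library totals are the reads counted at the listed positions, and the number of reads sequenced is not known here. Positions carry no coordinates, so they are numbered here by their row within the gene, and neither their distances nor their place in exon, intron or untranslated region is known. The files name no strand, and reads of a transcript on the other strand cannot be told apart. Marker genes of prostate cells and METTL1 itself were not analysed here, because the gene IDs are not paired with symbols in the tables used.

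One library stood apart from the rest. Shscramble replicate 1 had a read at all 12 of the members' positions with at least 10 reads in shscramble replicate 2, and at all 8 of those in shscramble replicate 3. In the other 28 pairings of libraries the share at the members' positions lay between 0% and 55.6%. Over all gene IDs the same shares were 93.7% and 97.5%, against 28.8% to 49.8% in the other 28 pairings. Why replicate 1 shared the positions of both others was not tested, and the tests between the groups are also given without it.

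**Figure D1:**
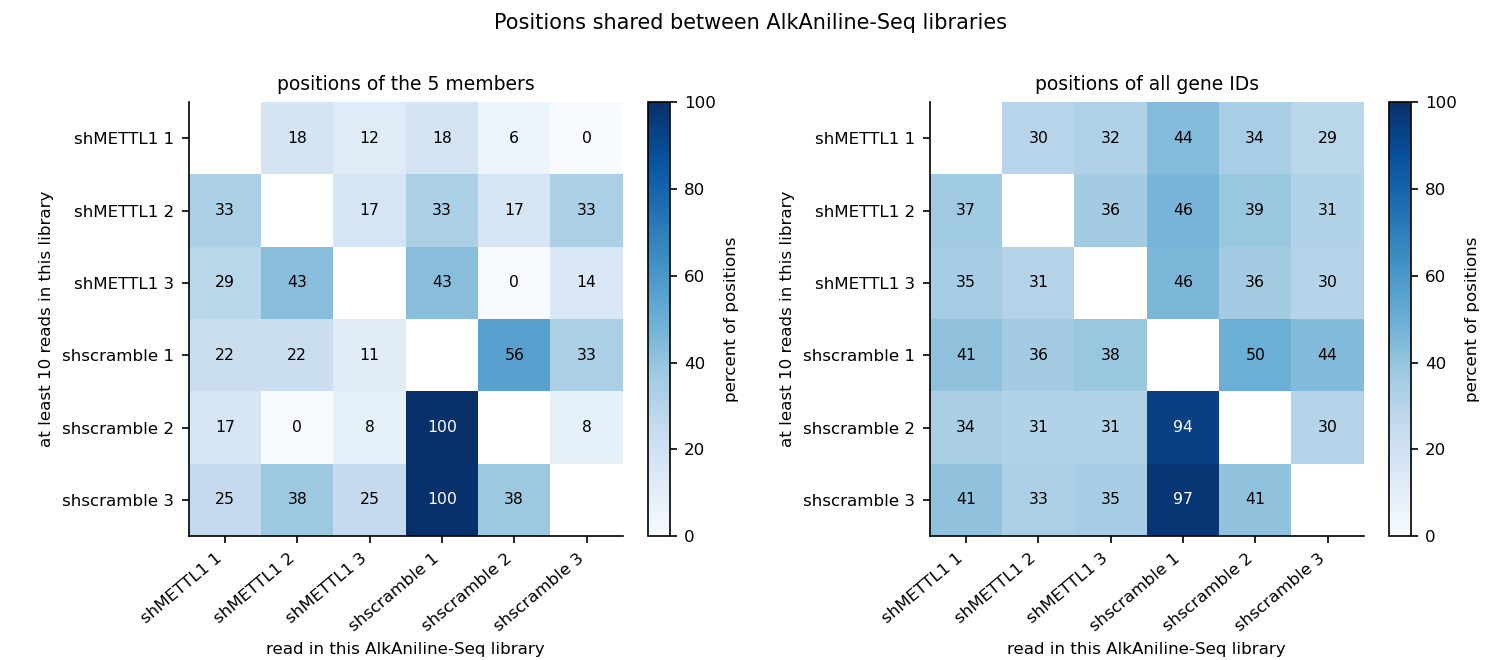
Percent of positions with at least 10 reads in one AlkAniline-Seq library (rows) that had at least 1 read in another (columns), for the 5 members (left) and for all gene IDs (right). The 2 cells for shscramble replicates 2 and 3 looked up in shscramble replicate 1 are at 100% for the members and at 93.7% and 97.5% for all gene IDs, and no other cell is above 55.6%.

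The first comparison asked whether the m7G signal over CDK14 differed after METTL1 knockdown. CDK14 had 263, 13 and 66 AlkAniline-Seq reads in shMETTL1 replicates 1, 2 and 3, against 45, 169 and 85 reads in shscramble. The highest and the lowest library were both shMETTL1, and the 3 shscramble libraries lay between them. After TMM scaling CDK14 averaged 45.4 ± 50.9 CPM (counts scaled to the effective library size) in shMETTL1 and 49.5 ± 21.5 CPM in shscramble (SD, n = 3 each). The log2 fold change of shMETTL1 over shscramble was -0.13 (SE 1.09, adjusted p = 0.99 from edgeR). The direction rested on single libraries: the log2 fold change was -1.55 without shMETTL1 replicate 1 and 0.42 without shMETTL1 replicate 2. Without shscramble replicate 1 it was -0.45 (SE 1.27).

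Cyclin Y, the activating partner, had 563, 234 and 100 AlkAniline-Seq reads in shMETTL1, against 246, 178 and 39 in shscramble. The groups overlapped, with the highest and the third highest library in shMETTL1. CCNY averaged 119 ± 90.9 CPM in shMETTL1 and 76.6 ± 54.4 CPM in shscramble (SD, n = 3 each), a log2 fold change of 0.64 (SE 0.74, adjusted p = 0.94 from edgeR). Without shscramble replicate 1 it was 1.32 (SE 0.93), and without shMETTL1 replicate 1 it was -0.13.

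CDK16, the other kinase activated by cyclin Y, had 354, 98 and 36 reads in shMETTL1 and 123, 215 and 242 in shscramble. In reads the shMETTL1 libraries again held both the highest and the lowest value, while after scaling the highest was shscramble replicate 3. The mean was 64.4 ± 65.0 CPM in shMETTL1 and 107 ± 56.8 CPM in shscramble (SD, n = 3 each), with a log2 fold change of -0.73 (SE 0.80, adjusted p = 0.94 from edgeR). Without shscramble replicate 1 it was -0.97 (SE 0.93), and without shMETTL1 replicate 1 it was -1.94. With only positions read in at least 2 libraries it was -2.23 (SE 1.34) for CDK16 and -2.39 (SE 1.69) for CDK14.

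CDK17 was the member whose shMETTL1 libraries all lay above the shscramble libraries, as was found after scaling for 7.1% of the 11097 gene IDs tested. It had 55, 21 and 184 AlkAniline-Seq reads in shMETTL1, against 8, 3 and 5 in shscramble. Means were 36.2 ± 37.3 CPM in shMETTL1 and 3.02 ± 1.70 CPM in shscramble (SD, n = 3 each). The log2 fold change was 3.57 (SE 1.57), which had an unadjusted p of 0.036 and an adjusted p of 0.69 from edgeR and so did not pass. Leaving out one library gave 2.32 to 4.06, and 3.95 (SE 2.14) without shscramble replicate 1. It reached the minimum count through its shMETTL1 libraries, since its shscramble reads were all under 10. The fold change and p thus describe a gene admitted to the fit by its higher group. It was not tested with a minimum count of 50, with each position counted once or with positions read in at least 2 libraries. The reads came from few positions, as given below.

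CDK18 had no AlkAniline-Seq read in any shMETTL1 library, against 2, 41 and 12 reads in shscramble. It did not reach the minimum count for the test. How many of all gene IDs had this pattern was not determined, so it is not read as particular to CDK18. With 3 reads over the group as the floor and scaling by library totals, CDK18 was at least 24.6-fold lower in shMETTL1, a bound that covers counting error only. The bound was at least 11.5-fold without shscramble replicate 2, which held 41 of the 55 reads, and at least 33.9-fold without replicate 1. The listed CDK18 positions were hardly covered in shMETTL1, with 1, 0 and 1 positions covered, against 4, 3 and 3 in shscramble.

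The same fit gave few calls over all gene IDs. Of the 4 members tested, 2 were above 0 and 2 below, with a median log2 fold change of 0.26, against 0.074 over the 11097 gene IDs tested. None of the 4 was called. Among all gene IDs 0% were called higher and 0.00901% (1 gene ID) lower by edgeR. Before adjustment 774 had a p under 0.05, and the number called by DESeq2 was 178. In simulated AlkAniline-Seq counts, where 10589 gene IDs were fitted, edgeR recovered 0 of 47 genes changed 2-fold, 6 of 47 changed 4-fold, 18 of 43 changed 8-fold and 26 of 47 changed 16-fold. The coefficient of variation between replicates was estimated at 0.90, so changes of up to 4-fold were seldom recovered at this spread between replicates.

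**Figure D2:**
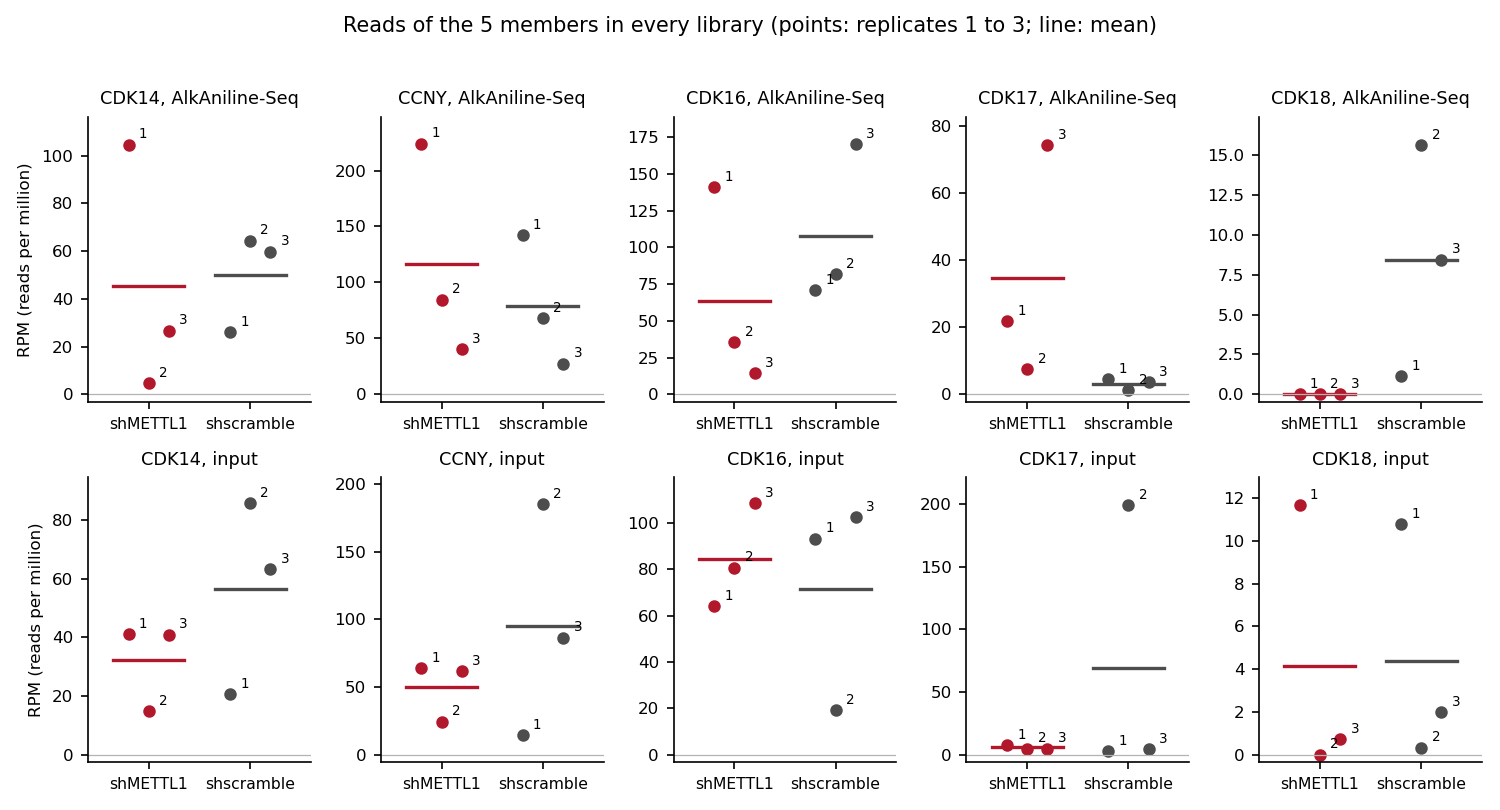
RPM, the reads scaled to the library total (vertical axes, each panel with its own scale), for the 5 members in AlkAniline-Seq (top) and input (bottom), with shMETTL1 left of shscramble in every panel. Points are replicates 1 to 3 and the line is the mean. CDK17 in AlkAniline-Seq is above every shscramble library in all 3 shMETTL1 libraries, CDK18 is at 0 in all 3, and in the CDK17 input panel a single shscramble library lies near 199.

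The second comparison used the input libraries, the unenriched counterpart of AlkAniline-Seq, whose reads are counted at the same listed positions and not over whole transcripts. In bulk RNA, fewer cells that express a gene and less RNA per cell cannot be told apart. CDK14 had 134, 48 and 114 input reads in shMETTL1 and 65, 264 and 193 in shscramble. The 2 highest libraries were shscramble replicates 2 and 3, and the lowest was shMETTL1 replicate 2. Means were 28.9 ± 12.9 CPM in shMETTL1 and 70.1 ± 55.2 CPM in shscramble (SD, n = 3 each), and the log2 fold change was -1.28 (SE 0.88, adjusted p = 0.85 from edgeR). It was -0.49 (SE 0.71) without shscramble replicate 2 and -1.75 (SE 0.89) without replicate 1.

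CCNY had 209, 78 and 171 input reads in shMETTL1, against 46, 569 and 263 in shscramble. The lowest and the highest library were both shscramble. The means were 44.6 ± 18.8 CPM in shMETTL1 and 125 ± 138 CPM in shscramble (SD, n = 3 each), and the log2 fold change was -1.49 (SE 0.84, adjusted p = 0.81 from edgeR). Without shscramble replicate 2 it was -0.12 (SE 0.69).

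CDK16 was the evenest member in the input, with 209, 259 and 302 reads in shMETTL1 and 294, 59 and 312 in shscramble. Its log2 fold change was 0.067 (SE 0.68, adjusted p = 0.99 from edgeR), and -0.31 without shscramble replicate 2. CDK17 had 25, 15 and 13 input reads in shMETTL1 and 8, 613 and 14 in shscramble. The library with 613 reads lay far above the other 5, and the log2 fold change of -4.33 (SE 1.41, adjusted p = 0.75 from edgeR) became 0.54 (SE 1.32) without it. CDK18 had 38, 0 and 2 input reads in shMETTL1 and 34, 1 and 6 in shscramble, and was not tested.

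In the input, 1 of the 4 tested members was above 0 and 3 below, with a median log2 fold change of -1.38, against -0.038 over 11740 gene IDs. Of all gene IDs 0% were called higher and 0% lower by edgeR, while 735 had a p under 0.05 before adjustment and DESeq2 called 35. No member was called by edgeR with its filter on low counts. Without the filter edgeR called CDK17 lower (-4.35, adjusted p = 0.0074), and DESeq2 gave no adjusted p for it. With the filter its value was 0.54 without the library with 613 reads, as given above. The input values without shscramble replicate 1 were -2.05 for CCNY, 0.26 for CDK16 and -4.94 for CDK17, and edgeR called none of them.

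Shscramble input replicate 2 was uneven within each of these genes. A single position held 238 of its 264 CDK14 reads (90.2%), 502 of 569 CCNY reads (88.2%), 52 of 59 CDK16 reads (88.1%) and 611 of 613 CDK17 reads (99.7%). In the shMETTL1 input libraries the deepest position held 14.2% to 43.8% of the CDK14 reads, 20.1% to 39.7% of the CCNY reads, 18.2% to 21.5% of the CDK16 reads and 32.0% to 66.7% of the CDK17 reads. In the other 2 shscramble input libraries it held 58.5% and 63.2% of the CDK14 reads, 21.7% and 24.0% of the CCNY reads, 31.6% and 59.3% of the CDK16 reads, and 4 of 8 and 9 of 14 CDK17 reads. In this share shscramble replicate 2 was thus the highest library for each of the 4 genes. For CDK14 and CDK16 the other shscramble libraries were also above all 3 shMETTL1 libraries. How many of all gene IDs showed this is not given here, so it is not read as a trait of these genes. Shscramble input replicate 2 read 72098 positions over all gene IDs, where the other input libraries read 153839 to 311979 in shMETTL1 and 154432 and 158448 in shscramble. The part of this unevenness in the lower input values of shMETTL1 was not tested. Without the library the log2 fold changes of CDK14, CCNY and CDK17 were -0.49, -0.12 and 0.54. That of CDK16 went the other way, from 0.067 to -0.31.

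**Figure D3:**
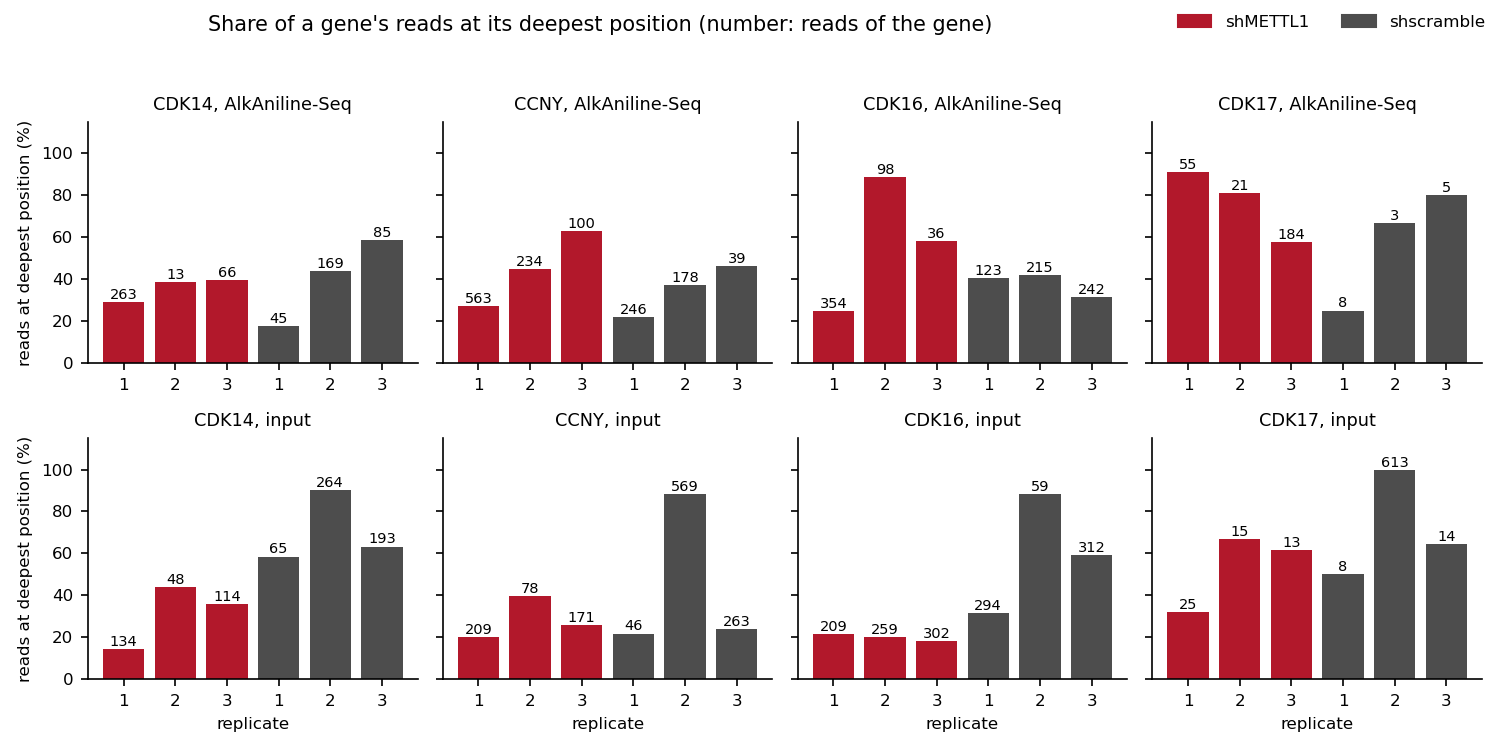
Percent of a gene's reads that lie at its deepest position (vertical axis) in each replicate (horizontal axis), for AlkAniline-Seq (top) and input (bottom), with the gene's read number above each bar. Shscramble input replicate 2 is at 88.1% to 99.7% for the 4 genes.

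The third comparison set AlkAniline-Seq against the input within each group. The fit compared group means, without pairing each AlkAniline-Seq library with its own input. In shMETTL1 the log2 fold change of AlkAniline-Seq over input was 0.57 for CDK14 (SE 0.99), 1.33 for CCNY (SE 0.86), -0.34 for CDK16 (SE 0.77) and 2.74 for CDK17 (SE 1.37). In shscramble it was -0.76 for CDK14 (SE 0.99), -0.98 for CCNY (SE 0.86), 0.34 for CDK16 (SE 0.77) and -5.38 for CDK17 (SE 1.56). CDK18 was at 0.72 in shscramble (SE 1.64), and its fitted value in shMETTL1, where it had no AlkAniline-Seq read, depends on the prior count and is not given. None of these passed in edgeR with its filter, the smallest adjusted p being 0.13 for CDK17 in shscramble. CDK17 in shscramble did pass in DESeq2 (-5.66, adjusted p = 0.0015) and in edgeR without a filter (-5.29, adjusted p = 0.011). Without shscramble replicate 2 it was 0.015, and CCNY in shscramble was 0.57 (SE 0.94). Without shscramble replicate 1, CDK14 in shscramble was -0.76 (SE 1.20), CCNY -2.07 (SE 0.96), CDK16 0.86 (SE 1.01), CDK17 -6.21 (SE 1.83) and CDK18 3.14 (SE 2.28), with no adjusted p from edgeR below 0.28. Among all 12877 gene IDs 0.0854% were called higher and 0.124% lower than the input in shMETTL1, and 0.0932% higher and 0.544% lower in shscramble.

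By replicate, with 0.5 reads added and scaling by library totals, CDK14 had log2 ratios of AlkAniline-Seq to input of 1.35, -1.63 and -0.61 in shMETTL1, against 0.34, -0.41 and -0.079 in shscramble. The shscramble ratios all lay inside the range of the shMETTL1 ratios. For CCNY the ratios were 1.80, 1.80 and -0.60 in shMETTL1, against 3.27, -1.44 and -1.64 in shscramble. CDK16 had 1.13, -1.18 and -2.88 in shMETTL1 and -0.39, 2.09 and 0.73 in shscramble. For CDK17 they were 1.497, 0.69 and 3.94 in shMETTL1 and 0.87, -7.22 and -0.30 in shscramble, where the value of -7.22 comes from the input library with 613 reads.

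Whether enrichment over input differed between the groups was tested with an interaction term in the fit of all 12 libraries, again without pairing. It was 1.33 for CDK14 (SE 1.40, adjusted p = 0.84 from edgeR), 2.31 for CCNY (SE 1.21, adjusted p = 0.63) and -0.68 for CDK16 (SE 1.09, adjusted p = 0.90). For CDK17 it was 8.11 (SE 2.07), with an unadjusted p of 0.00072 and an adjusted p of 0.45 from edgeR. DESeq2 called CDK17 (log2 fold change 8.42, adjusted p = 0.0026), and so did edgeR without a filter on low counts (7.96, adjusted p = 0.014). Without shscramble replicate 2, the replicate whose input held 611 reads at a single position, the value was 2.72 (SE 1.97, adjusted p = 0.87 from edgeR). With all libraries kept and each AlkAniline-Seq library paired with its own input, CDK17 was at 3.90 (SE 2.19, adjusted p = 0.94 from edgeR). Without shscramble replicate 1, CDK14 was at 1.31, CCNY at 3.38, CDK16 at -1.22 and CDK17 at 8.94. CDK14 was at 0.021 (SE 1.73) without shMETTL1 replicate 1 and at 0.69 without shscramble replicate 2, where CCNY was at 0.77. CDK18 was in the fit too, but its value is not given because it had no AlkAniline-Seq read in shMETTL1. Among all gene IDs 0% were called higher and 0.00777% lower in this comparison, and 1075 had a p under 0.05 before adjustment.

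**Figure D4:**
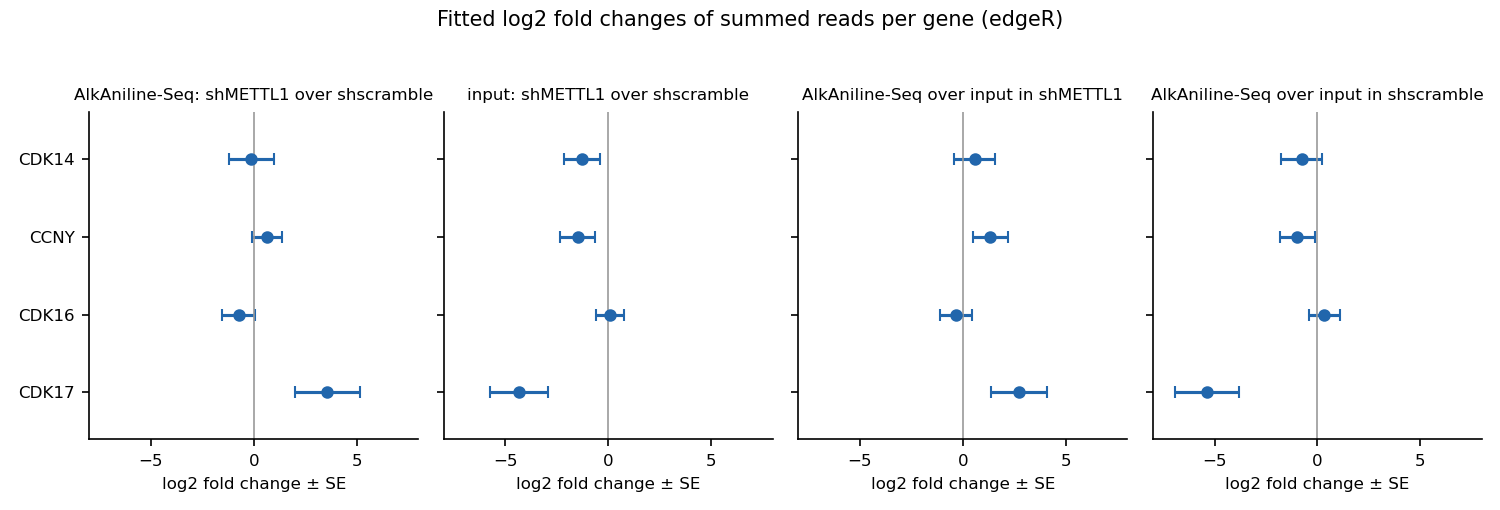
Fitted log2 fold changes of summed reads per gene (horizontal axes, points with SE bars, edgeR) for the 4 members with reads in both groups, in 4 comparisons from left to right. CDK14 is at -0.13 in AlkAniline-Seq and -1.28 in the input, and the SE bar of CDK17 is the widest in each panel.

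Within the genes, reads were scattered over positions that seldom recurred. Of the 420 positions, 200 had a read in at least 1 AlkAniline-Seq library, and 149 of these (74.5%) had it in exactly 1 library, against 62.9% of the 404685 positions read over all gene IDs. For CDK14 it was 62 of 74 positions (83.8%), for CCNY 46 of 64 (71.9%), for CDK16 30 of 45 (66.7%), for CDK17 8 of 13 and for CDK18 3 of 4. No position of the 5 genes was read in all 6 AlkAniline-Seq libraries. Reads were found in both groups at 26 positions, in shMETTL1 alone at 94 and in shscramble alone at 80. A single read in 1 library made up 82 of the 200. The split between groups is not given over all gene IDs, so it is not read as a trait of these genes.

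Most member positions read in one group only had no coverage in the other, a share not given here over all gene IDs. Of the 80 positions read in shscramble alone, 58 were uncovered in all 3 shMETTL1 libraries, and of the 94 read in shMETTL1 alone, 67 were uncovered in all 3 shscramble libraries. At such positions the fraction has no denominator in the other group, and the deposited fold over input is 0 there. For CDK14, 35 positions were read in shMETTL1 alone, 30 of them uncovered in shscramble, and 33 were read in shscramble alone, 28 of them uncovered in shMETTL1.

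Positions read in 2 libraries show the replicate that stands apart, and they were counted for the members only. Of 36 such positions, 1 was shared by 2 shMETTL1 libraries, 22 by 2 shscramble libraries and 13 by 1 library of each group. All 22 shscramble pairs included replicate 1, so none was left without it. For CDK14 alone, 5 of 9 such positions were shared by shscramble replicates 1 and 2.

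**Figure D5:**
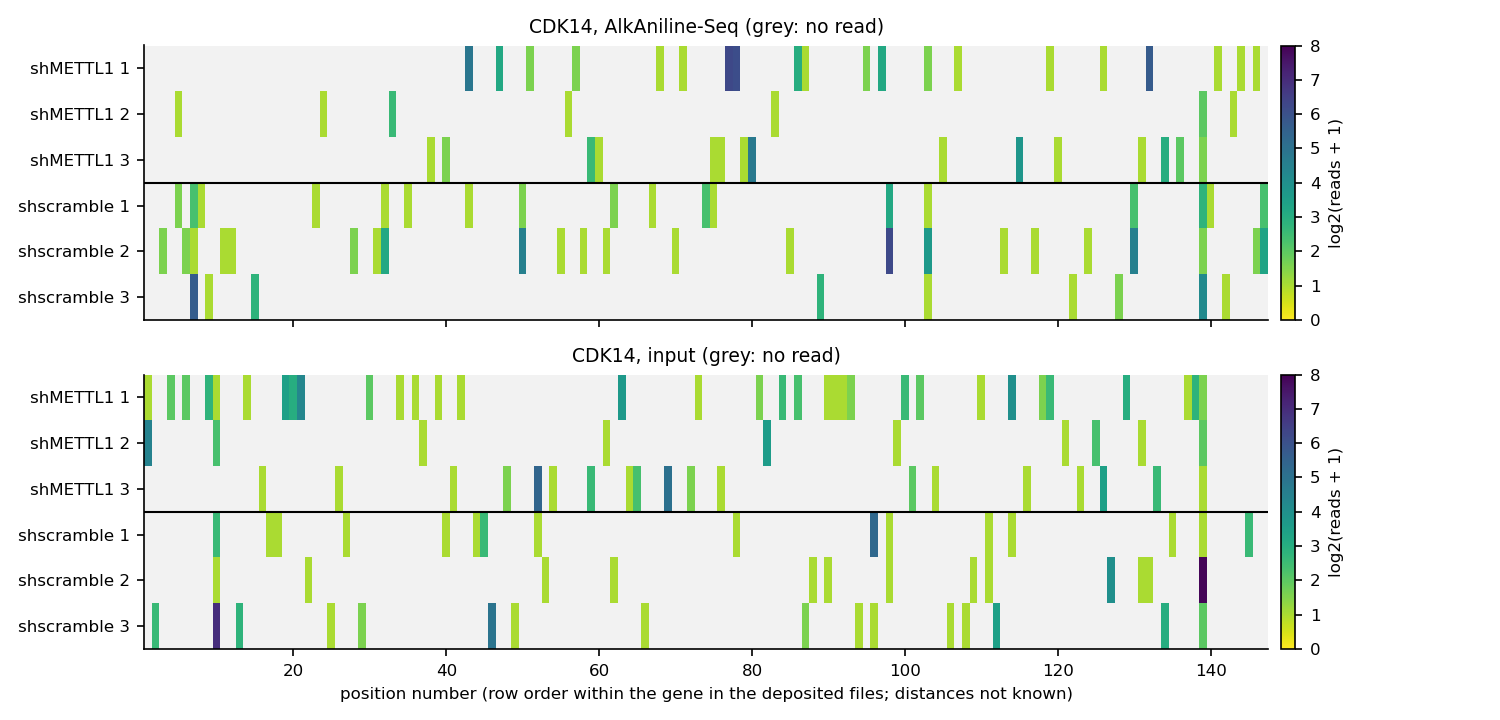
Reads at the 147 CDK14 positions (horizontal axis, numbered by row order) in the 6 AlkAniline-Seq libraries (top) and the 6 input libraries (bottom), shMETTL1 above shscramble. Colour is log2(reads + 1) and grey means no read, and most columns are filled in 1 library only.

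The deepest CDK14 positions were each carried by a single library. Position 98 had no read in shMETTL1 and 8, 74 and 0 reads in shscramble, with 1 input read in each of shscramble replicates 1 and 2. Positions 77 and 78 had 76 and 68 reads in shMETTL1 replicate 1 and no read in any other AlkAniline-Seq library. None of the 3 was covered in an AlkAniline-Seq library without a read at it.

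Position 7 was the only CDK14 position read in all 3 libraries of one group and in none of the other. It had no read and no coverage in the 3 shMETTL1 libraries, against 4, 1 and 50 reads in shscramble, where every covering read was counted at it. No input library read or covered it. The deposited fold over input was 0 in each shMETTL1 library and 2 in each shscramble library, since the tables give the fraction plus 1 where the input fraction is 0. With 3 reads over the group as the floor, it was at least 24.6-fold lower in shMETTL1, and at least 32.6-fold without shscramble replicate 1. Without shscramble replicate 3, which held 50 of the 55 reads, the bound was at least 2.97-fold. The position was picked by this pattern and was uncovered in shMETTL1. The bounds thus describe the counts and test no difference in m7G.

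Such positions were common. Over all gene IDs, 4367 of the 404685 positions with a read (1.08%) were read in all 3 shscramble libraries and in no shMETTL1 library, and 18.1% of the 17561 gene IDs with a read held at least 1. The median of their summed reads was 41, 3150 of them (72.1%) had a single read in the weakest shscramble library, and 1242 (28.4%) had no coverage in any shMETTL1 library. With shscramble replicate 1 left out, a count made after the data were seen, 5538 of 356514 positions (1.55%) were read in both other shscramble libraries and in no shMETTL1 library, and CDK14 position 7 was the 1 member position among them. The reverse pattern was found at 952 positions (0.235%) and in 4.86% of the gene IDs.

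Position 139, named here after its values were seen, was the CDK14 position with reads in the most libraries. It had 0, 3 and 2 AlkAniline-Seq reads in shMETTL1, with a coverage of 7, 17 and 63, against 6, 2 and 17 reads in shscramble, with a coverage of 87, 117 and 94. All 6 input libraries read it, with 2, 3 and 1 reads in shMETTL1 and 1, 238 and 3 in shscramble. It is the position that held 90.2% of the CDK14 reads of shscramble input replicate 2.

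For CCNY, position 57 was the only one of the 420 with reads in all 3 shMETTL1 libraries and in no shscramble library. It had 152, 6 and 10 reads in shMETTL1 at a coverage of 156, 124 and 13, against no read in shscramble at a coverage of 53, 44 and 0. It was at least 41.7-fold higher in shMETTL1 with the floor of 3 reads, and at least 5.88-fold without shMETTL1 replicate 1. Position 57 was also picked by its pattern, so these bounds describe its counts and are no test. Its input reads were 0, 1 and 44 in shMETTL1 and 0, 0 and 1 in shscramble. Unlike CDK14 position 7, it was covered in 2 libraries of the group without a read.

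The next CCNY positions went either way. Position 65 had 6, 10 and 63 reads in shMETTL1 and 54, 0 and 16 in shscramble, a log2 fold change of -0.18 (SE 2.12, adjusted p = 0.9998 from edgeR). Position 87 had 129, 16 and 0 reads in shMETTL1 and none in shscramble, at a coverage of 343, 161 and 24 in shMETTL1 and 111, 44 and 66 in shscramble.

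CDK16 had its deepest position at 78, with 0, 87 and 0 reads in shMETTL1 and 13, 2 and 76 in shscramble, a log2 fold change of -0.49 (SE 2.34, adjusted p = 0.9998 from edgeR). All but 1 of the 6 input libraries also read it, with 45, 35 and 37 reads in shMETTL1 and 93, 0 and 185 in shscramble. Position 11 had no read in shMETTL1 and 10, 90 and 0 in shscramble, and position 70 had 87 reads in shMETTL1 replicate 1 alone.

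The CDK17 difference came from a different position in each shMETTL1 library. Position 14 held 106 of the 184 reads of shMETTL1 replicate 3 and position 6 another 78, position 11 held 50 of the 55 reads of replicate 1, and position 4 held 17 of the 21 reads of replicate 2. In shscramble positions 14 and 6 had 1 read each in replicate 1, and positions 11 and 4 had none. The number of CDK17 positions read did not differ between groups, with 4, 5 and 2 in shMETTL1 and 7, 2 and 2 in shscramble (exact two-sided permutation test, p = 1). For CDK18, position 12 held 43 of the 55 reads, with 2 in shscramble replicate 1 and 41 in replicate 2, and position 7 had 9 in replicate 3.

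At the thresholds the study used, where the fold over input has to differ by more than 1.5 times either way with a p under 0.05 before adjustment, no member position was higher in shMETTL1 and 2 were lower. These were CDK14 position 7 and CDK17 position 2. Over all gene IDs 0.204% of the positions with a read were higher and 1.05% lower at these thresholds, so 2 of 200 is near the background. CDK17 position 2 had 1, 0 and 0 reads in shMETTL1 and 2, 2 and 1 in shscramble, and 611 input reads in shscramble replicate 2. Limma on log2(fold + 1) called neither, and with at least 10 AlkAniline-Seq reads required only CDK14 position 7 was left. The fold of CDK14 position 7 was 0 in every shMETTL1 library and 2 in every shscramble library, values set by the rule given above. With no spread within either group, its p at the study's thresholds cannot measure a difference, and nothing is concluded from its passing. Without shscramble replicate 1 the number lower was 1, and without shscramble replicate 3 it was 19. The share of all positions in these 2 settings is not given, so neither number is read as a result about the members. The same limit holds wherever the fold is 0 in every shMETTL1 library and 2 in every shscramble library left.

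Counts at single positions gave no call. Only 2 member positions, CCNY 65 and CDK16 78, reached the minimum count, and neither passed. Among all 13973 positions tested 0% were called higher and 0% lower by edgeR, while 1145 had a p under 0.05 before adjustment and DESeq2 called 177 higher and 536 lower. When shscramble replicate 3 was left out, 29677 positions over all gene IDs were tested in edgeR, of which 0.735% were called higher and 18.3% (5426) lower. Of the 9 member positions tested in that fit, 3 were called, all lower in shMETTL1. None of the 3 had a read in shMETTL1, so each entered the fit through its shscramble reads. These were CDK14 position 98 (log2 fold change -7.60, adjusted p = 0.0076), CCNY position 31, named after its values were seen (-7.40, adjusted p = 0.0073) and CDK16 position 11 (-7.89, adjusted p = 0.017). The 2 shscramble libraries left in that fit are replicate 2 and replicate 1, which had a read at every deep member position of replicate 2, and without replicate 1 none of the 4 member positions tested was called.

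Counted once each, the CDK14 positions gave no difference either. In shMETTL1 the libraries read 20, 7 and 15 CDK14 positions in AlkAniline-Seq, against 18, 23 and 9 in shscramble (exact two-sided permutation test, p = 0.7, where 3 against 3 cannot go below 0.1). In the input they read 33, 10 and 19, against 16, 13 and 16 in shscramble (exact permutation test, p = 0.7). The reads counted at CDK14 positions were 31.6% ± 25.7 of the coverage in shMETTL1 and 25.9% ± 9.61 in shscramble (SD, n = 3 each, exact permutation test, p = 0.7). In the input they were 40.3% ± 22.1 in shMETTL1 and 62.3% ± 30.5 in shscramble (SD, n = 3 each, exact permutation test, p = 0.6).

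Coverage separated the groups in a few cases. CDK16 had 32, 32 and 31 positions covered in shMETTL1 AlkAniline-Seq libraries, against 49, 43 and 41 in shscramble, and CDK14 had 45, 28 and 30 covered in shMETTL1 input libraries, against 26, 19 and 26 in shscramble. In both the groups did not overlap, and the exact permutation p of 0.1 is the smallest that 3 against 3 libraries allow. The same p was found for the CDK18 positions covered in AlkAniline-Seq. These were 3 of 10 comparisons, 5 genes in 2 assays, and no p was adjusted over them. Over all gene IDs with coverage, the groups stood apart with shMETTL1 lower in 5.24% in AlkAniline-Seq and with shMETTL1 higher in 11.7% in the input.

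By the pattern over libraries, the gene IDs most like CDK14 among those tested were ENSG00000176946 in AlkAniline-Seq (Pearson's r of log2 CPM 0.997 over 6 libraries, highest of 11097 gene IDs) and ENSG00000155816 in the input (r 0.997 over 6 libraries, highest of 11740). These were the highest of many correlations over 6 libraries and are given as a description only. Neither ID has a symbol in the tables used.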

How the data were processed

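Internal m7G was measured by AlkAniline-Seq with matched input in shMETTL1 and shscramble LNCaP-AI cells, 3 libraries of each kind per group. Per position, the tables deposited by the authors hold 2 counts (reads at the position and reads covering it), the fraction of the first in the second, and a ratio that sets this fraction against the one in the input. Bowtie2 2.2.4, cutadapt 1.9.1, bedtools 2.24 and build hg19 appear in the processing notes of the submitters. What each tool did, the gene annotation and any strand setting are not given in the sources used. On the files the fraction equalled count over coverage at every position, rows had the same order in all 6 files, and the fold departed from its rule (fraction over input fraction, or fraction plus 1 where the input fraction is 0) at 25 to 76 positions per library (tolerance 1e-06). Reads counted at 1 position are not independent molecules, so bounds from counts cover counting error only.

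Counts were summed per gene ID and tested in R 4.3.3 by the quasi-likelihood method of edgeR 4.0.16 after TMM scaling, with filterByExpr at its defaults (counts of at least 10, totals of at least 15), also per position, with Benjamini-Hochberg adjustment over all features tested. The 2 assays were fitted apart between groups and together, with an interaction, for enrichment over input. Reads counted at the listed positions ranged from 1421551 to 3258499 per library. The methods' t-test on the deposited fold over input gave the p for the study's thresholds. DESeq2 1.42.0, limma 3.58.1, other scalings and filters, a replicate block and leaving out each replicate were the alternatives. In the fits of both assays the block paired each AlkAniline-Seq library with its own input. The edgeR fits of AlkAniline-Seq gene counts and positions and the limma step were tested on simulated data. The exact permutation test was checked on known answers, and the other fits were not simulated. In simulated positions changed 16-fold, edgeR recovered 3 of 36 among 9843 positions. Tables were handled in Python 3.11.15.

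All 5 members are named. Positions named are up to 3 per member with the most AlkAniline-Seq reads, those read in all 3 libraries of one group and none of the other, and those past the study's thresholds. CDK14 position 139, CCNY position 31 and CDK17 position 4 were named after their values were seen. The members, lists and tests were chosen with earlier results of these data known. Lists of pathway genes and of prostate markers were not looked up, since 0 of the 18569 gene IDs could be paired with a symbol through the reference table used here. Symbols of the 5 members were given with their IDs. Gene levels were not compared between genes, because lengths were not used here.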

Additional observations from a re-analysis of the deposited data

How the results depend on the processing

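With 3 libraries per group the spread between replicates limits every value, and so does the overlap of shscramble replicate 1 with both other shscramble libraries. Of 222 values under alternatives other than leaving out a replicate, 166 kept their direction and side of the threshold, 31 moved, 20 reversed and 5 newly passed. With a replicate left out, 240 of 299 were kept, 28 reversed and 31 moved. The cause was not tested in any of them.

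Numbers of gene IDs called by edgeR were 1 for shMETTL1 over shscramble in AlkAniline-Seq, 0 in the input, 1 for the interaction, and 27 and 82 for AlkAniline-Seq over input within shMETTL1 and within shscramble. In that order DESeq2 called 178, 35, 95, 112 and 571, and edgeR without a filter called 19, 95, 31, 104 and 266. With each position counted once the numbers were 5, 7, 0, 118 and 4. Keeping only positions read in at least 2 libraries gave 0 in AlkAniline-Seq, 62 within shMETTL1 and 150 within shscramble. Library size alone gave 2 in AlkAniline-Seq and 57 within shMETTL1, and a minimum count of 50 gave 2 and 41. Leaving out a replicate gave 0 to 3 in AlkAniline-Seq, 0 in the input, 0 to 1 for the interaction, 1 to 82 within shMETTL1 and 17 to 75 within shscramble.

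Replicate numbers did not pair the samples: deviations of same-numbered shMETTL1 and shscramble libraries correlated between -0.024 and 0.048. Those of AlkAniline-Seq libraries and their own inputs correlated between -0.0030 and 0.029. As a block, the replicate number gave 3 calls in AlkAniline-Seq and 2 in the input. In the fits of both assays the block instead paired each AlkAniline-Seq library with its own input. That pairing gave 69 calls within shMETTL1, turned CDK14 within shMETTL1 to -0.18 and gave 0.29 for its interaction.

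In AlkAniline-Seq the log2 fold change of CDK14 was 0.0010 without a filter, and with each position counted once it was 0.049 for CDK14 and 0.052 for CDK16. With positions read in at least 2 libraries CDK14 was at -2.39 and CDK16 at -2.23. In the input CDK16 was at -0.031 in DESeq2, -0.32 with each position counted once and -0.35 with positions read in at least 2 libraries. With each position counted once, CDK16 was at 0.37 in the interaction and -0.41 within shscramble, and CDK14 at 0.22 within shscramble. CDK17 newly passed in edgeR without a filter in the input (-4.35, adjusted p = 0.0074) and within shscramble (-5.29, adjusted p = 0.011), and in DESeq2 within shscramble (-5.66, adjusted p = 0.0015).

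Leaving out a replicate gave log2 fold changes in AlkAniline-Seq of -1.55 to 0.42 for CDK14 (interaction 0.021 to 1.85) and -0.13 to 1.32 for CCNY (interaction 0.77 to 3.38), and in the input of -0.31 to 0.33 for CDK16 and -4.94 to 0.54 for CDK17. The interaction of CDK16 was -2.11 to 0.042. Within shMETTL1 CDK14 was at -0.75 to 1.07 and CDK16 at -1.78 to 0.37. Within shscramble CCNY was at -2.07 to 0.57, CDK17 at -6.21 to 0.015 and CDK18 at -0.60 to 3.14.

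Member positions lower at the study's thresholds numbered 2, and 0 with limma, with or without a replicate block, 1 with at least 10 reads, and 1 to 19 with a replicate left out, where the number higher was 0 to 1. The share of all positions with a replicate left out is not given, so these numbers are not read as a trait of the members. Member positions called on counts were 0 to 3, and all positions called 3 to 5644.

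Differences of shMETTL1 minus shscramble in positions read, per 1000 positions read in the library, were -0.033 (CDK14), -0.036 (CCNY), -0.015 (CDK16), -0.00052 (CDK17) and -0.0027 (CDK18) in the input and 0.00029 for CDK16 in AlkAniline-Seq, each against the sign of the plain difference. Differences in the percent of coverage turned to 2.57 for CCNY and 4.48 for CDK18 in the input without the deepest position, and with the mean fraction to 3.29 for CDK16 in AlkAniline-Seq and -2.13 in the input. With a replicate left out, the difference in positions read was -6.5 to 0.83 (CDK14) and -1.33 to 5.67 (CCNY) in AlkAniline-Seq, and -0.5 to 11 (CDK14), -1.83 to 7.17 (CCNY) and -1 to 3 (CDK18) in the input. That in the percent of coverage was -2.69 to 20.4 (CDK14) and -1.36 to 8.03 (CCNY) in AlkAniline-Seq, and -16.6 to 1.40 (CCNY) and -27.7 to 13.9 (CDK17) in the input.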
